A study of Mus musculus with 3 samples.

Results

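The chemokine receptor genes *Cxcr3*, *Cxcr4*, *Cxcr6*, *Ccr2*, *Ccr8* and *Cx3cr1* were followed in tumor-infiltrating lymphocytes (TILs). They were picked by symbol, and all 6 were found among the 32285 genes of the deposited tables. They were described in 6 lymphocyte classes set by raw counts of unique molecular identifiers (UMIs, each standing for a captured RNA molecule), none of which uses a chemokine receptor. NK cells had at least 1 UMI of *Ncr1* and at most 1 of *Cd3e*, and the NK cells with at least 2 UMIs of *Rora* and none of *Eomes* were set apart as ILC-like. CD8 T cells had at least 2 UMIs of *Cd3e* and 1 each of *Cd8a* and *Cd8b1*, CD4 T cells at least 2 of *Cd3e* and 1 of *Cd4* with no *Foxp3*, and Treg cells at least 2 of *Cd3e* and 1 of *Foxp3*. Gamma-delta (γδ) T cells had at least 1 UMI each of *Cd3e* and *Cd163l1*, a scavenger receptor gene typical of IL-17-type γδ T cells, so other γδ T cells fell outside the class.

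WT C57BL/6 Kaede mice, whose cells all carry a green fluorescent protein that violet light turns red, had borne MC38-Ova tumors under the skin, from an ovalbumin-expressing form of the colon adenocarcinoma line MC38. By the labels all mice had received an isotype control, and the study's text names the line MC38; age is not given per library. Tumors were seeded with 250000 cells, photoconverted on day 13 and taken on day 15, so sorted Kaede-green (KG+) TILs had entered within the last 48 h and sorted Kaede-red (KR+) TILs had been in the tumor for at least 48 h. KG+ cells made 2 libraries labeled as biological replicates, Kaede-green 1 and Kaede-green 2, and KR+ cells made 1, Kaede-red; whether a library pools animals is not given, and the sort set the proportions of the cell types.

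Of the 34781 cell barcodes, 31943 passed the filter on genes and mitochondrial UMIs. Of these, 21178 fell in 1 class, 941 met the rules of at least 2 classes and were left out, and 9824 met none. The classes held 7944 NK, 507 ILC-like, 9287 CD8 T, 1056 CD4 T, 1766 Treg and 618 γδ T cells. Kaede-red was the deepest library: its median NK cell held 17512 UMIs against 6083 and 8083 in Kaede-green 1 and 2, its median CD8 T cell 14066 against 8819 and 10376.5, while its median Treg cell held 7039 against 9474 and 10158.5. The class rules also read raw UMIs, and the part of depth in who met them was not tested. Levels are given as CPM, the UMIs of a gene scaled to all UMIs of a class in a library, and shares of cells after thinning each cell to 2000 UMIs. Libraries shared 20 to 36 barcodes in pairs. Markers not used by the rules followed the classes. The sum of 7 NK genes was between 7582 and 9008 CPM in NK cells, 5153 to 5570 in ILC-like cells and at most 3003 in CD8 T cells. That of 7 γδ genes was between 3608 and 5474 CPM in γδ T cells and at most 163 elsewhere. That of 4 Treg genes was between 5026 and 5768 CPM in Treg cells, 1400 to 2664 in CD4 T cells and 623 to 862 in CD8 T cells. ILC-like cells had 543 to 717 CPM of these Treg genes against 181 to 219 in NK cells. Whether Treg cells without a *Foxp3* UMI were among the CD4 T cells was not tested. ILC-like cells had 483 to 624 CPM of 5 ILC genes against 68.5 to 111 in NK cells. These genes were not particular to ILC-like cells, with 1578 to 2115 CPM in γδ T cells and 379 to 468 in CD4 T cells. Of 4 T cell receptor and CD3 genes, ILC-like cells had 491 to 570 CPM against 310 to 453 in NK cells, mostly *Trbc2* (mean 407 against 280 CPM). *Cd3d* (41.4 against 40.0), *Cd3g* (35.9 against 31.3) and *Trac* (53.5 against 46.0) were alike in size. Of 3 mast cell genes, *Kit*, which ILCs also express, had a mean of 128 CPM in ILC-like and 42.7 in NK cells, while *Cpa3* (0.078 and 3.17) and *Mcpt4* (0.078 and 0.092) were near 0 in ILC-like cells.

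Chemokine receptors are membrane proteins that couple to inhibitory G proteins, and they steer lymphocytes along gradients of chemokines. CXCR3 answers CXCL9, CXCL10 and CXCL11, which interferon gamma induces, and marks type 1 lymphocytes. CXCR4 answers CXCL12 and holds cells in bone marrow and other niches. CXCR6 binds CXCL16, which is displayed on myeloid cells, and marks resident lymphocytes. CCR2 answers CCL2 and related inflammatory chemokines, CCR8 answers CCL1 and, in the mouse, CCL8, and is a marker of tumor Treg cells, and CX3CR1 answers CX3CL1 and marks differentiated effector cells.

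*Cx3cr1*, *Ccr8*, *Cxcr6* and *Ccr2* lie on mouse chromosome 9 in GRCm38 (GENCODE annotation), at positions given in turn: *Cx3cr1* (119901616 to 120069879, minus strand), *Ccr8* (120092114 to 120094906, plus strand), *Cxcr6* (123806475 to 123811760, plus strand) and *Ccr2* (124101950 to 124113557, plus strand). *Cxcr4* lies on chromosome 1 (128588199 to 128592293) and *Cxcr3* on chromosome X (101731535 to 101734269), both on the minus strand. *Cx3cr1* and *Ccr8* are 22235 bases apart and read away from each other, and *Cxcr6* and *Ccr2* are 290190 apart. The annotated span of *Cx3cr1* also holds *Gorasp1*, *Csrnp1* and *Xirp1* on the same strand, so reads in shared stretches could not be assigned by position alone.

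The promoter windows (RefSeq, GRCm38.p6) of 5 receptors are shown because these genes differed together between CD8 T cells with and without *Pdcd1* and *Havcr2*, *Cxcr6*, *Ccr8* and *Cx3cr1* being higher and *Cxcr3* and *Cxcr4* lower. Each window runs 5′ to 3′ along the gene, from 250 bases before the start to 50 after it, and capitals mark matches on either strand to TGTGGT (a RUNX motif) or CACCC (a KLF motif).
*Cxcr6* (chr9:123806227-123806526, plus strand): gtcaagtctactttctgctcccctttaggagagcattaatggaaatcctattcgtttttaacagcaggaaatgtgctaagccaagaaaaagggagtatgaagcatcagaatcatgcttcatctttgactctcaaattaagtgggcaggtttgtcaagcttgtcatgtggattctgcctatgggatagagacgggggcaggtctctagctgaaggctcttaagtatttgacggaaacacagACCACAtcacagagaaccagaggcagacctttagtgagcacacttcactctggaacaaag
*Ccr8* (chr9:120091883-120092182, plus strand): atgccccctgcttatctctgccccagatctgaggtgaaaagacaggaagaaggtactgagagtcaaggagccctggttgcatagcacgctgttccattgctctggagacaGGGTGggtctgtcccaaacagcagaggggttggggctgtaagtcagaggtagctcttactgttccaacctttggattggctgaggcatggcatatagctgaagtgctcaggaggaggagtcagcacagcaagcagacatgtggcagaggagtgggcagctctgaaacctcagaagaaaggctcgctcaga
*Cx3cr1* (chr9:120068247-120068546, minus strand): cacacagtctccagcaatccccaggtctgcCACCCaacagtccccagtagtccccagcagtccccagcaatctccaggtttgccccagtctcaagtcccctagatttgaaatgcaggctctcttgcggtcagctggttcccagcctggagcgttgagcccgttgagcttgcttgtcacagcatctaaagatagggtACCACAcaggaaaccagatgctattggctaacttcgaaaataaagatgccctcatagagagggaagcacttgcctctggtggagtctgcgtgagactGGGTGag
*Cxcr3* (chrX:101734098-101734397, minus strand): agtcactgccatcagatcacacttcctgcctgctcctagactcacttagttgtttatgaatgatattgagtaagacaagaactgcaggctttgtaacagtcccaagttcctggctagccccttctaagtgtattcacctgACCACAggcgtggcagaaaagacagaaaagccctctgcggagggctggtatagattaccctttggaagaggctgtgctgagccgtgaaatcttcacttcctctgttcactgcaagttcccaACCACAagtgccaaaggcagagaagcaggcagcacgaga
*Cxcr4* (chr1:128592250-128592549, minus strand): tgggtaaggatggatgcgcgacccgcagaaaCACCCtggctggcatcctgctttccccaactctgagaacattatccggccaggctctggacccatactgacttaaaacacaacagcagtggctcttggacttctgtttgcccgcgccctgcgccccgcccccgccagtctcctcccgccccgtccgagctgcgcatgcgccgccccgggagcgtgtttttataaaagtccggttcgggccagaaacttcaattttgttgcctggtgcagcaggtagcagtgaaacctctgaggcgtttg
TGTGGT was matched in the windows of *Cxcr3* (2 matches), *Cxcr6* and *Cx3cr1* (1 each), against 16.8% of all 32851 promoter windows of the same length. CACCC was matched in *Cx3cr1* (2), *Ccr8* and *Cxcr4* (1 each), against 57.5% of all windows. AGGTGT (a T-box half-site), TGANTCA (AP-1) and ACGTG (HIF) were matched in none of the 6 receptor windows and in 13.7%, 7.81% and 19.6% of all windows. No motif was common to the 3 genes that were higher, and the RUNX letters were found on both sides of the split. *Ccr2* (124101933 to 124102232, plus strand) held no match to any of the 5.

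The classes differed in which receptor they carried. γδ T cells stood highest for *Cxcr6* and *Cxcr4*, Treg cells for *Ccr2* and *Ccr8*, CD4 T cells for *Cxcr3*, and CD8 T cells for *Cx3cr1*. NK cells had high *Ccr2* and very little *Cxcr6*, *Ccr8* and *Cx3cr1*. Their *Cxcr4* was high in Kaede-green 1 and 2 (395 and 285 CPM) but not in Kaede-red (77.1 CPM). The order of classes within each gene is a description. Levels are not compared between genes.

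*Cxcr3* was highest in CD4 T cells, with 147 and 132 CPM in Kaede-green 1 and 2 and 111 CPM in Kaede-red, the order in which values are given from here on. Treg cells followed with 95.7, 86.0 and 83.8 CPM, below every CD4 T value. γδ T cells had 53.8, 72.3 and 38.5 CPM, CD8 T cells 52.3, 46.3 and 16.7, ILC-like cells 44.2, 26.1 and 15.5, and NK cells 21.7, 21.1 and 7.26. From γδ T cells down, the ranges of neighboring classes overlapped, although the order held inside each of the 3 libraries. The low *Cxcr3* values of CD8 T and NK cells were those of Kaede-red.

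*Cxcr4* was high in γδ T cells in every library, at 382, 441 and 427 CPM. NK cells had 395, 285 and 77.1 CPM, ILC-like cells 340, 236 and 117, and CD4 T cells 265, 219 and 197. The NK range overlapped those of γδ T, ILC-like and CD4 T cells. The ILC-like and CD4 T ranges overlapped each other and lay below all γδ T values. In Kaede-green 1 NK cells were the highest. Treg cells with 133, 106 and 64.1 CPM and CD8 T cells with 142, 109 and 37.3 lay below all CD4 T values and overlapped each other.

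*Cxcr6* was highest in γδ T cells, at 720, 534 and 671 CPM. CD8 T cells had 234, 293 and 341 CPM, CD4 T cells 157, 188 and 329, and Treg cells 114, 142 and 211. The γδ T values stood clear of the rest, and the CD8 T, CD4 T and Treg ranges overlapped while keeping that order in every library. ILC-like cells held 74.3, 75.8 and 76.0 CPM, the most even level of the 6 classes, and NK cells 4.47, 12.3 and 7.36.

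*Ccr2* was highest in Treg cells, with 338, 369 and 503 CPM, followed by γδ T cells with 286, 293 and 345, below the Treg value in each library. NK cells had 221, 246 and 211 CPM and CD4 T cells 101, 177 and 238. ILC-like cells had 125, 142 and 105 CPM and CD8 T cells 41.0, 59.3 and 23.6, the latter below every value of the other classes.

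*Ccr8* was highest in Treg cells, at 31.1, 22.7 and 22.6 CPM. CD4 T cells had 11.8, 10.3 and 15.5 CPM, CD8 T cells 10.0, 9.17 and 7.56, ILC-like cells 4.31, 3.38 and 6.10, γδ T cells 1.99, 1.06 and 1.48, and NK cells 0.368, 0.809 and 0.603. No neighboring classes overlapped, but the lower end rests on few molecules: γδ T cells held 3, 1 and 3 UMIs of *Ccr8*, with 95% Poisson intervals reaching 5.82, 5.92 and 4.33 CPM.

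*Cx3cr1* was highest in CD8 T cells, with 50.5, 78.4 and 52.7 CPM. CD4 T cells had 11.8, 21.3 and 14.3 CPM, Treg cells 7.87, 13.4 and 12.3, ILC-like cells 1.08, 6.28 and 11.7, NK cells 5.74, 6.24 and 3.14, and γδ T cells 5.31, 3.19 and 5.92. The CD8 T values lay apart, and the 5 other classes formed an overlapping run.

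**Figure D1:**
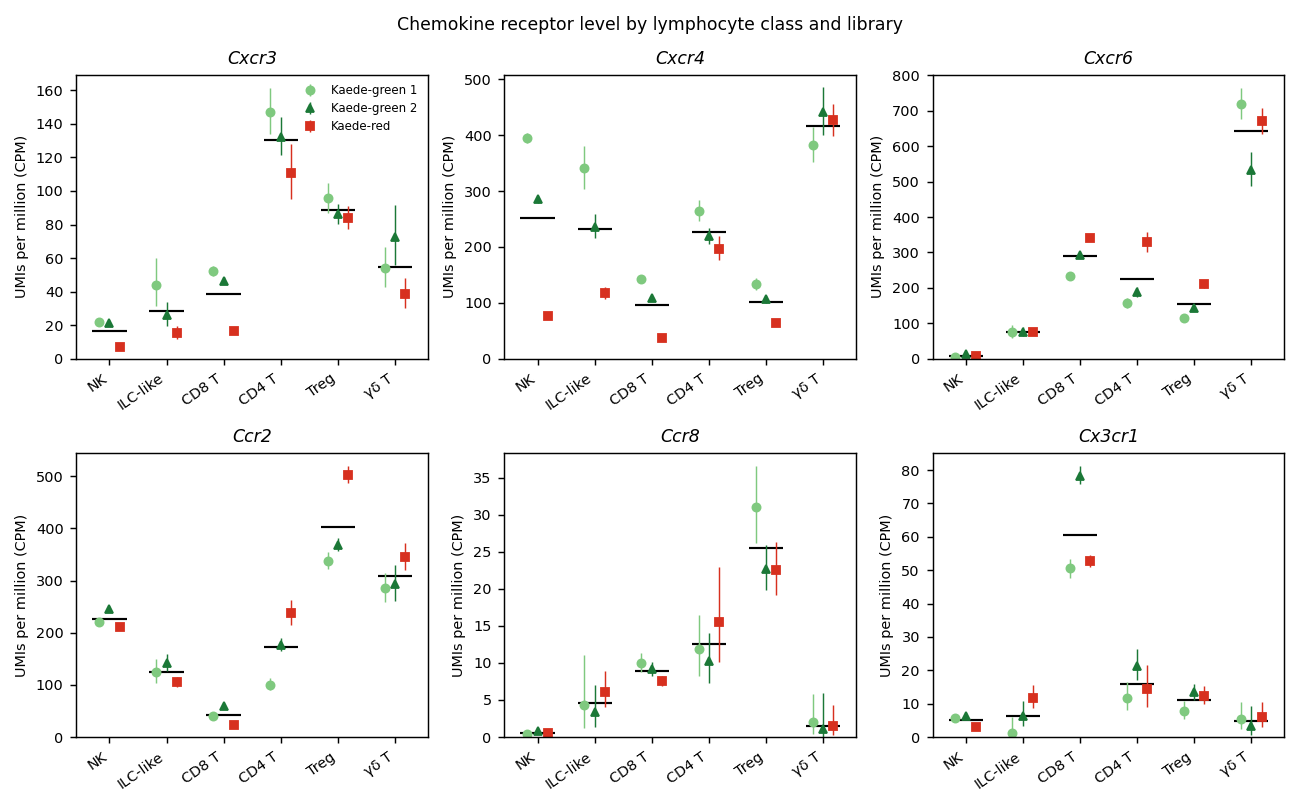
Level (CPM) of each receptor by class and library; points are libraries with exact Poisson 95% intervals and bars are the means of the 3 libraries. *Cxcr6* in γδ T cells lies between 534 and 720 CPM, and the Kaede-red squares of *Cxcr4* in NK (77.1 CPM) and CD8 T cells (37.3 CPM) lie below both Kaede-green points.

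The share of cells with at least 1 UMI, at 2000 UMIs per cell, gave the same highest class for all 6 receptors. *Cxcr6* was detected in 59.9%, 55.1% and 67.3% of γδ T cells and in 30.3%, 36.7% and 44.2% of CD8 T cells. *Ccr2* was detected in 49.3%, 48.8% and 54.5% of Treg cells and in 30.2%, 32.9% and 29.0% of NK cells. B cells, which should lack *Cxcr6*, *Ccr2*, *Ccr8* and *Cx3cr1*, served as a background for these genes. There were 163 and 80 B cells in Kaede-green 1 and 2 and only 2 in Kaede-red.

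*Cxcr6* was detected in 0.637%, 2.59% and 1.40% of NK cells against 2.45% and 3.75% of B cells in the Kaede-green libraries, so its share in NK cells was at or below the background. *Cxcr3* was detected in 4.06%, 4.38% and 2.53% of NK cells, close to the B cell shares of 3.07% and 2.50%. Before thinning the B cells held 14 and 9 *Cxcr3* UMIs, and whether these are background or expression was not tested. Kaede-red NK cells (7.26 CPM) lay below the B cell levels of the Kaede-green libraries (18.3 and 17.6 CPM). Low *Cxcr3* in NK cells was thus not told apart from background. B cells themselves gave *Cxcr4* in 39.3% and 37.5% of cells, a gene they are known to express. *Ccr8* was detected in 7.47%, 4.30% and 4.33% of Treg cells and *Cx3cr1* in 8.24%, 13.5% and 9.84% of CD8 T cells. Neither was detected in B cells, where 0 of 163 cells allows a share of up to 1.84% and 0 of 80 cells up to 3.75%.

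**Figure D2:**
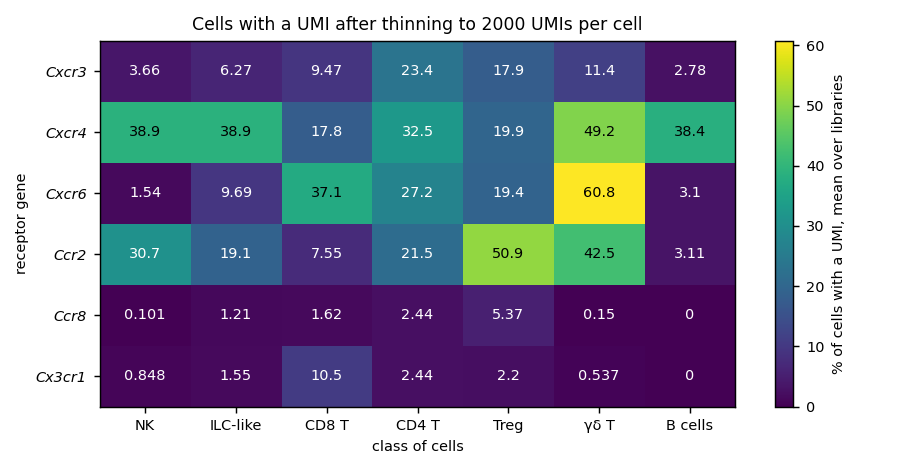
Percent of cells with at least 1 UMI of each receptor after thinning to 2000 UMIs per cell, as the mean over the 3 libraries (B cells over the 2 Kaede-green libraries). γδ T cells combine *Cxcr6* (60.8%), *Cxcr4* (49.2%) and *Ccr2* (42.5%), whereas NK cells hold *Cxcr4* (38.9%) and *Ccr2* (30.7%) with 1.54% for *Cxcr6*.

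Classes also differed in how many of the 6 receptors were detected in a cell. At 2000 UMIs, at least 3 of the 6 receptors were detected in 15.3%, 16.5% and 19.0% of γδ T cells, in 5.33%, 7.89% and 6.49% of Treg cells, and in 0.916%, 1.71% and 0.342% of NK cells. No receptor was detected in 30.8%, 34.7% and 53.8% of NK cells, against 14.4%, 13.4% and 5.95% of γδ T cells. γδ T cells thus stood at the multi-receptor end in every library. Whether these counts differ from what the shares of the single receptors would give was not tested.

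Within CD8 T cells, those with a *Cx3cr1* UMI held *Ccr8* 1.96 to 3.23 times as often as those without, and *Cxcr6* 1.26 to 1.83 times as often, over the 3 libraries. Cells with *Cx3cr1* held *Cxcr3* at 0.547 to 0.585 times the frequency. Cells with *Cxcr3* held *Ccr2* 1.65 to 2.09 times as often and *Ccr8* at 0.182 to 0.635 times. They held *Cxcr6* at 0.698 to 0.923 times the frequency of those without *Cxcr3*. *Cx3cr1*, *Ccr8* and *Cxcr6* were thus more often found together. *Cxcr3* was less often found with *Cx3cr1* and *Ccr8* and, to a smaller degree, with *Cxcr6*. Treg cells with *Cxcr6* held *Cxcr4* at 0.379 to 0.554 times the frequency of those without, and γδ T cells with *Cxcr6* held *Ccr2* 1.39 to 1.77 times as often. These ratios describe cells of the same libraries and carry no test.

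Classes were tested on 18 sums of UMIs, 6 classes in each of 3 libraries, with edgeR's quasi-likelihood test, the library as a block and Benjamini-Hochberg adjustment over 11032 genes. The block takes out what the classes of a library share. The p-values thus measure how class differences vary between these 3 libraries, and color is part of that variation. Differences are on the log2 scale with an SE derived from the size of the difference and the test's F statistic.

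NK cells differed from CD8 T cells in all 6 receptors, 2 higher and 4 lower, where 27.6% of the genes tested passed, 13.4% higher and 14.3% lower. NK cells were higher for *Ccr2* by 2.51 ± 0.27 (adjusted p = 1.89e-06) and for *Cxcr4* by 1.39 ± 0.31 (adjusted p = 0.00268). They were lower for the other 4, with *Cxcr6* at -5.12 ± 0.28 (adjusted p = 1.26e-09), *Ccr8* at -3.77 ± 0.24, *Cx3cr1* at -3.57 ± 0.25 and *Cxcr3* at -1.17 ± 0.24 (adjusted p = 0.00137). These are relative differences: *Cxcr4* was still detected in 17.8% of CD8 T cells on average, and *Ccr8* in 1.62%. The *Cxcr4* call was lost without the library block (adjusted p = 0.0594) and without Kaede-green 2 (adjusted p = 0.0575). The NK share of *Cxcr6* was at or below the B cell background, and that of *Cxcr3* was close to the B cell shares.

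ILC-like cells were higher than NK cells for *Cxcr6*, by 3.16 ± 0.28 (adjusted p = 2.86e-06), and *Ccr8*, by 2.95 ± 0.35 (adjusted p = 8.79e-05), 2 of 6 receptors where 3.31% of genes passed, 1.89% higher and 1.42% lower. For *Cxcr6* the values were 74.3 to 76.0 CPM against 4.47 to 12.3. *Ccr8* rested on 4, 7 and 26 UMIs in the ILC-like cells. Differences that did not pass were -0.95 ± 0.27 for *Ccr2* (adjusted p = 0.0732), 0.70 ± 0.30 for *Cxcr3* (adjusted p = 0.313), 0.72 ± 0.36 for *Cx3cr1* (adjusted p = 0.415) and -0.09 ± 0.31 for *Cxcr4* (adjusted p = 0.988). *Ccr2* passed in 5 alternatives, with adjusted p between 1.09e-12 and 0.0424. The lowest adjusted p was that of edgeR with no filter on low counts. Keeping cells of 2 classes (adjusted p = 0.00879) left the ILC-like cells unchanged at 94, 161 and 252. The NK cells were then 2514, 2515 and 2923 against 2511, 2512 and 2921. In both runs the *Ccr2* difference stayed close to the main one, so neither is read as separate evidence of lower *Ccr2*. *Cxcr3* passed in edgeR with no filter on low counts (0.65, adjusted p = 0.00405) and among cells of 4000 to 16000 UMIs (0.92, adjusted p = 0.0157). *Kit* and *Trbc2* levels and the sum of the Treg genes were also higher in ILC-like than in NK cells in every library. Their part in this comparison was not tested.

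CD8 T cells differed from CD4 T cells in 4 of 6 receptors, 1 higher and 3 lower, where 25.2% of genes passed, 11.6% higher and 13.7% lower. *Cx3cr1* was higher in CD8 T cells by 2.01 ± 0.27 (adjusted p = 1.03e-04). *Cxcr3* was lower at -1.77 ± 0.25 (adjusted p = 1.29e-04), *Ccr2* at -1.93 ± 0.27 (adjusted p = 1.40e-04) and *Cxcr4* at -1.31 ± 0.32 (adjusted p = 0.00819). *Cxcr6* (0.50 ± 0.24, adjusted p = 0.131) and *Ccr8* (-0.36 ± 0.23, adjusted p = 0.264) did not pass, although *Cxcr6* did without Kaede-red (adjusted p = 0.0291). The *Cxcr4* call was lost without the block (adjusted p = 0.124), with cells of 2 classes kept (adjusted p = 0.0784) and without Kaede-green 2 (adjusted p = 0.0613).

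Treg cells differed from CD4 T cells in 3 of 6 receptors, where 23.1% of genes passed, 11.7% higher and 11.4% lower. *Ccr2* was higher by 1.24 ± 0.26 (adjusted p = 0.00332) and *Ccr8* by 1.03 ± 0.23 (adjusted p = 0.00414), and *Cxcr4* was lower at -1.26 ± 0.32 (adjusted p = 0.0107). All 3 had the same direction in every library. The part of any Treg cells without a *Foxp3* UMI in the CD4 T class was not tested. With edgeR on the other 2 libraries, 0 of 6 passed without Kaede-green 1, 1 (*Ccr2*) without Kaede-green 2 and 5 without Kaede-red. Without Kaede-green 1 the difference was 1.09 for *Ccr2* (adjusted p = 0.0913) and 0.88 for *Ccr8* (adjusted p = 0.0916). *Cxcr3* (-0.53 ± 0.25), *Cxcr6* (-0.54 ± 0.24) and *Cx3cr1* (-0.52 ± 0.31) did not pass, with adjusted p between 0.113 and 0.241.

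γδ T cells differed from CD4 T cells in all 6 receptors, 3 higher and 3 lower, where 14.4% of genes passed, 8.2% higher and 6.25% lower. *Cxcr6* was higher by 1.63 ± 0.24 (adjusted p = 1.89e-04), *Cxcr4* by 1.01 ± 0.32 (adjusted p = 0.0472) and *Ccr2* by 0.93 ± 0.27 (adjusted p = 0.0294). *Ccr8* was lower at -2.93 ± 0.44 (adjusted p = 2.01e-04), *Cx3cr1* at -1.55 ± 0.47 (adjusted p = 0.0358) and *Cxcr3* at -1.25 ± 0.28 (adjusted p = 0.00627). *Cxcr6* and *Ccr8* passed in every alternative run, and *Ccr8* rested on 7 UMIs in γδ T cells. Without the block 3 of 6 passed, without Kaede-green 1 there were 2 and without Kaede-green 2 there were 3.

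The classes were then split by genes that mark states within them. NK cells with *Itgam* (CD11b) and no *Itga1* are like circulating NK cells, and those with *Itga1* (CD49a) and no *Itgam* are the form the study describes in tumors. CD8 T cells were split into those with both and those with neither of *Pdcd1* and *Havcr2*, the inhibitory receptors PD-1 and TIM-3 of chronically stimulated cells. Treg cells were split by *Klrg1*, a receptor of terminally differentiated effector Treg cells. Each split had 6 sums, and the library was again the block.

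*Cxcr4* was lower in 1 side of each of the 3 splits. NK cells had 509, 412 and 245 CPM with *Itgam* and 192, 175 and 48.2 with *Itga1*, a log2 difference of -1.53 ± 0.17 (adjusted p = 1.30e-04). The subsets did not overlap. *Itga1* cells were deeper, with medians of 9446, 11626.5 and 25054 UMIs against 5348, 6722 and 6658. Among cells of 4000 to 16000 UMIs the levels were 519, 426 and 290 CPM with *Itgam* and 322, 316 and 205 with *Itga1*, and the difference shrank to -0.51 (adjusted p = 3.47e-05).

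Of the 5 receptors tested between NK *Itga1* and *Itgam* cells, *Cx3cr1* also passed, at -1.07 ± 0.35 (adjusted p = 0.0353), where 33.7% of genes passed, 17.6% higher and 16.1% lower. It had 10.7, 11.9 and 3.18 CPM in *Itgam* cells and 2.88, 5.65 and 3.80 in *Itga1* cells, so the Kaede-red values went the other way, on 2 UMIs in the *Itgam* cells. The *Cx3cr1* call was lost in 6 alternatives, DESeq2 included (adjusted p = 0.199). *Ccr2* was alike in size at 238, 241 and 247 CPM and 231, 253 and 232 CPM, with a difference of 0.07 ± 0.09 (adjusted p = 0.596). *Cxcr6* (0.85 ± 0.40) and *Cxcr3* (-0.43 ± 0.32) did not pass, and *Ccr8* was too low to test. Without Kaede-green 2 *Cxcr6* did pass (2.31, adjusted p = 0.0277), on 4 and 1 UMIs in the *Itgam* cells of Kaede-green 1 and Kaede-red. In Kaede-green 2 it had 11.9 CPM in *Itga1* and 11.4 in *Itgam* cells. The *Cxcr6* share of all NK cells was at or below the B cell background.

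In CD8 T cells all 6 receptors differed between cells with both *Pdcd1* and *Havcr2* and cells with neither, 3 higher and 3 lower, where 46.1% of genes passed, 22.8% higher and 23.3% lower. *Cxcr6* had 417, 419 and 420 CPM in the cells with both and 71.9, 94.7 and 117 in those with neither, a difference of 2.04 ± 0.11 (adjusted p = 1.06e-06). The levels of the cells with both were nearly equal in the 3 libraries. *Ccr8* had 14.0, 10.5 and 6.39 CPM against 1.26, 2.02 and 1.99 (2.44 ± 0.28, adjusted p = 7.28e-05), and *Cx3cr1* 86.4, 98.1 and 55.5 against 10.2, 29.5 and 16.3 (2.00 ± 0.20, adjusted p = 3.46e-05).

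*Cxcr3* and *Cxcr4* were lower in the CD8 T cells with both inhibitory receptors. *Cxcr3* had 17.0, 19.7 and 5.53 CPM against 68.7, 77.1 and 61.6 (-2.61 ± 0.23, adjusted p = 1.54e-05). *Cxcr4* had 62.4, 58.6 and 18.6 CPM against 201, 206 and 140 (-2.26 ± 0.18, adjusted p = 8.36e-06). For these 5 receptors no value of one subset reached the other. *Ccr2* was lower by -0.45 ± 0.14 (adjusted p = 0.0253), but its values of 42.4, 50.1 and 19.9 CPM and 38.2, 60.7 and 35.8 CPM overlapped, and among cells of 4000 to 16000 UMIs its difference turned to 0.10 (adjusted p = 0.67). Its call was also lost without Kaede-green 2 (adjusted p = 0.0692) and without Kaede-red (adjusted p = 0.0732). The cells with both were deeper, with medians of 12863.5, 12965.5 and 17580 UMIs against 8809, 9421 and 10099.

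In Treg cells 3 of 6 receptors differed with *Klrg1*, where 4.68% of genes passed, 2.1% higher and 2.58% lower. *Cxcr4* had 85.4, 78.4 and 40.1 CPM in *Klrg1* cells and 186, 143 and 112 in the others (-1.14 ± 0.10, adjusted p = 3.98e-05). *Ccr2* had 395, 454 and 559 CPM against 275, 254 and 391 (0.62 ± 0.07, adjusted p = 3.00e-04). *Cxcr6* had 175, 175 and 230 CPM against 45.5, 97.4 and 174 (0.92 ± 0.17, adjusted p = 0.00835).

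Every library had the same direction for these 3 receptors and the subsets did not overlap, although for *Cxcr6* and *Ccr2* the Kaede-red value without *Klrg1* nearly met the lowest value with it. Without the library block 0 of 6 passed in edgeR, with adjusted p of 0.208 for *Cxcr4*, 0.254 for *Ccr2* and 0.446 for *Cxcr6*, and DESeq2 did not call *Cxcr6* (adjusted p = 0.128). *Ccr8*, at 28.6, 22.3 and 23.6 CPM with *Klrg1* and 33.8, 23.3 and 20.6 without, did not pass (-0.06 ± 0.14, adjusted p = 0.895). *Cxcr3* (-0.20 ± 0.11, adjusted p = 0.382) and *Cx3cr1* (0.39 ± 0.20, adjusted p = 0.346) did not pass.

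**Figure D3:**
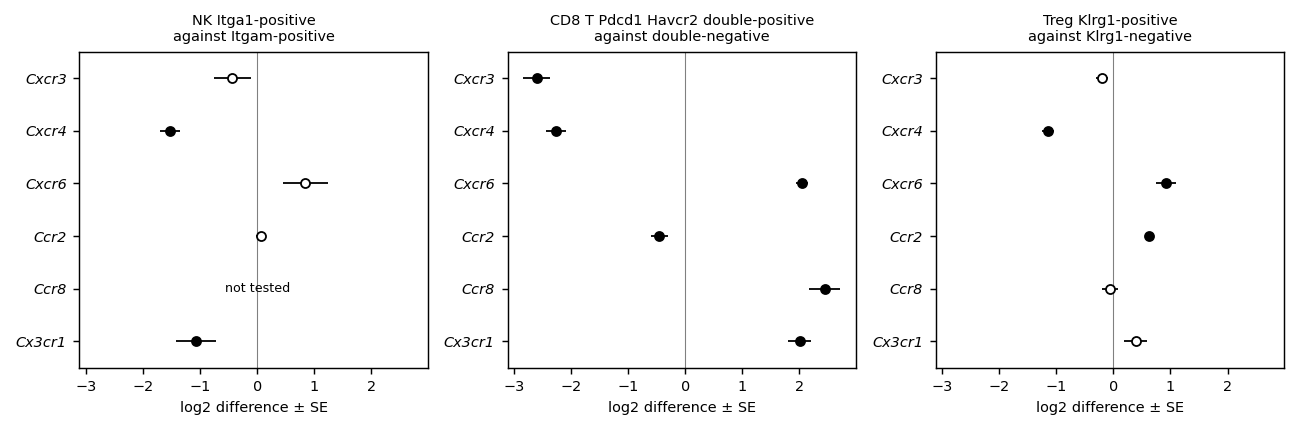
Log2 difference with its SE between subsets of NK, CD8 T and Treg cells for each receptor, from edgeR with the library as a block; filled points have an adjusted p under 0.05. *Cxcr4* lies left of 0 in all 3 panels (-1.53, -2.26 and -1.14), and *Cxcr6*, *Ccr8* and *Cx3cr1* lie at 2.00 or above in CD8 T cells.

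KR+ and KG+ cells were compared without a test, since there was 1 Kaede-red library. A ratio was counted as beyond the Kaede-green gap when Kaede-red differed from both Kaede-green libraries in the same direction by more than these differed from each other. This was so for 17 of the 36 receptor and class pairs, 12 lower and 5 higher in Kaede-red. In NK cells the 3 of 6 were all lower, where 63.3% of genes were beyond the gap, 20.9% higher and 42.4% lower. In ILC-like cells 2 were lower (33.2% of genes, 12.1% higher and 21.1% lower), and in CD8 T cells 4 were lower (50.3%, 25% higher and 25.3% lower). In CD4 T cells 2 were higher and 1 lower (42.3%, 23% higher and 19.3% lower), in Treg cells 2 higher and 1 lower (40%, 21.9% higher and 18.1% lower), and in γδ T cells 1 of each (31.1%, 15.1% higher and 16% lower). Nothing particular to the receptors is read from these counts. Color, library and depth cannot be told apart here.

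*Cxcr4* was lower in Kaede-red beyond the gap in 4 classes. The log2 ratios to Kaede-green 1 and 2 were -2.36 and -1.88 in NK cells, -1.54 and -1.01 in ILC-like cells, -1.93 and -1.54 in CD8 T cells, and -1.05 and -0.72 in Treg cells. In CD4 T cells (-0.42 and -0.15) and γδ T cells (0.16 and -0.05) it was within the gap. Among cells of 4000 to 16000 UMIs the NK ratios were -1.09 and -0.81, the ILC-like ratios -0.86 and -0.59, the CD8 T ratios -1.73 and -1.31, and the Treg ratios -1.47 and -1.27.

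*Cxcr3* was lower in Kaede-red in NK cells (-1.58 and -1.54), CD8 T cells (-1.65 and -1.47), CD4 T cells (-0.41 and -0.26) and γδ T cells (-0.48 and -0.91). In NK cells, whose Kaede-green levels were near those of B cells (18.3 and 17.6 CPM), the ratios shrank to -0.56 and -0.53 among cells of 4000 to 16000 UMIs, and in CD8 T cells they were -1.17 and -1.13. Treg cells held nearly even *Cxcr3* in the 3 libraries, with ratios of -0.19 and -0.04.

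*Cxcr6* and *Ccr2* included higher values in Kaede-red. *Cxcr6* was higher in CD4 T cells (1.06 and 0.81) and Treg cells (0.89 and 0.57), and higher than both Kaede-green libraries but within the gap in CD8 T cells (0.54 and 0.22). *Ccr2* was higher in Treg cells (0.57 and 0.45) and γδ T cells (0.27 and 0.23) and lower in CD8 T cells (-0.80 and -1.33) and ILC-like cells (-0.26 and -0.44). In ILC-like cells the counting interval of the ratio to Kaede-green 1 included equality. *Ccr8* was lower in CD8 T cells (-0.41 and -0.28) and higher in CD4 T cells (0.40 and 0.61), where the counting intervals of both ratios included equality. *Cx3cr1* was lower in NK cells (-0.87 and -0.99), from a level of at most 6.24 CPM.

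**Figure D4:**
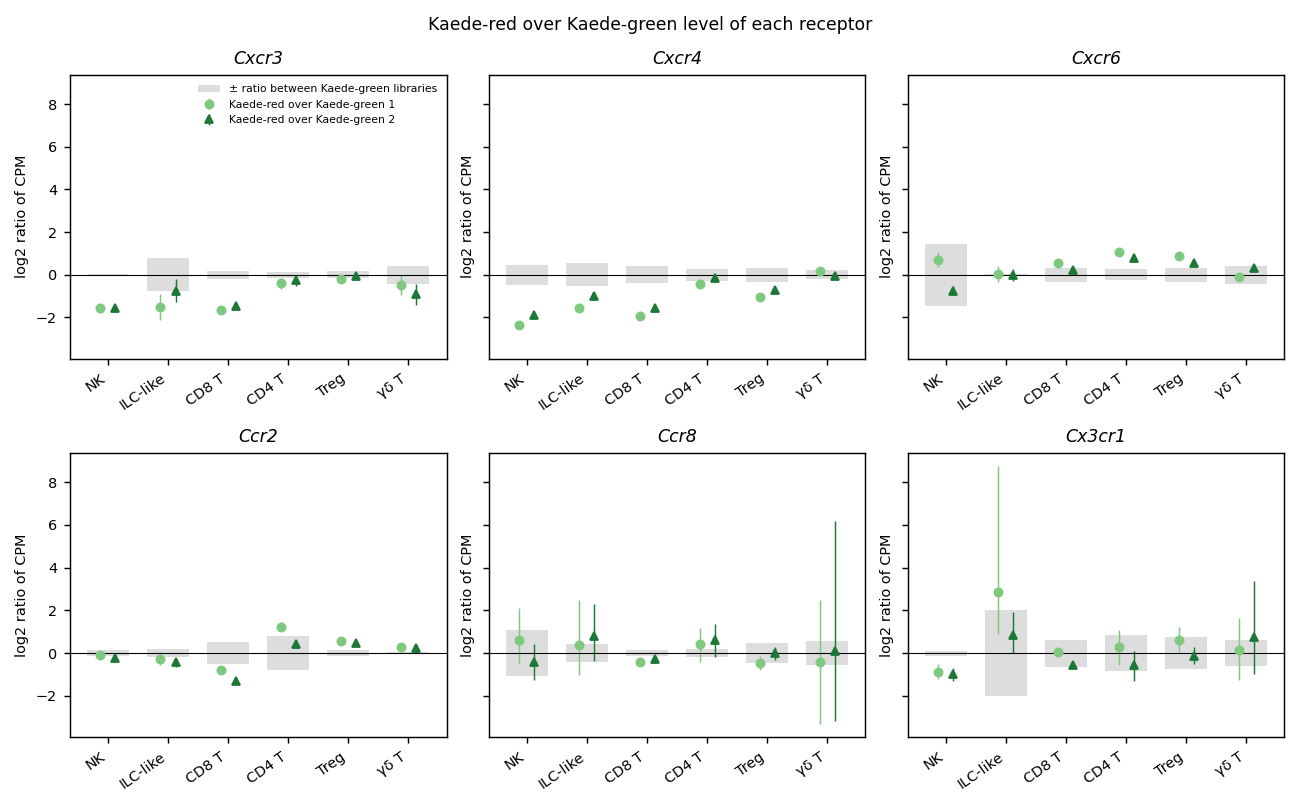
Log2 ratio of CPM (0.5 UMI added to each sum) in Kaede-red to each Kaede-green library, by receptor and class, with Poisson 95% intervals; gray bars span plus and minus the ratio between the Kaede-green libraries. *Cxcr4* points lie below the gray bars in NK, ILC-like, CD8 T and Treg cells, and *Cxcr6* points above them in CD4 T and Treg cells.

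Inside the subsets the differences were uneven. *Cxcr3* in NK *Itga1* cells had 18.4, 18.3 and 4.87 CPM, log2 ratios of -1.92 and -1.91, whereas in NK *Itgam* cells it had 19.1, 22.5 and 22.3 CPM, the last on 14 UMIs. In CD8 T cells with both *Pdcd1* and *Havcr2* it had log2 ratios of -1.63 and -1.83, and in those with neither -0.16 and -0.32, within the gap. Among cells of 4000 to 16000 UMIs the ratios were -1.10 and -0.83 in *Itga1* and -1.44 and -1.67 in double-positive cells. The Kaede-green levels of *Itga1* cells and of double-positive CD8 T cells (17.0 and 19.7 CPM) were near those of B cells (18.3 and 17.6 CPM). *Cxcr3* in B cells may be background or expression. With 2 B cells in Kaede-red the same comparison could not be made there. No change in *Cxcr3* is thus read from the NK subsets or from the double-positive CD8 T cells. The difference between subsets was not tested.

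*Cxcr4* was lower in Kaede-red in both NK subsets and both CD8 T subsets. Its log2 ratios were -2.00 and -1.86 in *Itga1* cells, -1.05 and -0.74 in *Itgam* cells, -1.75 and -1.66 in double-positive and -0.52 and -0.56 in double-negative CD8 T cells. Among cells of 4000 to 16000 UMIs, a limit added after the data had been seen, the *Itga1* ratios were -0.65 and -0.63 and the *Itgam* ratios -0.84 and -0.56, close to each other. Depth still differed inside this range, with medians of 7827, 8766 and 9977 UMIs in *Itga1* and 5810, 6752 and 6658 in *Itgam* cells. The double-positive CD8 T ratios there were -1.99 and -1.43.

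*Cxcr6* had ratios of 0.01 and 0.00 in double-positive CD8 T cells, against 0.54 and 0.22 in all CD8 T cells. In double-negative CD8 T cells the ratios were 0.70 and 0.30, higher than both Kaede-green libraries but within the gap. Among cells of 4000 to 16000 UMIs they were 0.95 and 0.38 in double-negative and 0.06 and 0.07 in double-positive cells. Double-positive cells made up 1829 of 3945 CD8 T cells in Kaede-red against 420 of 2248 and 966 of 3094 in Kaede-green 1 and 2; the split reads raw UMIs, and the part of depth in it was not tested. *Ccr2* in double-positive CD8 T cells was lower (-1.09 and -1.33). In Treg cells it was higher with *Klrg1* (0.50 and 0.30) and without (0.51 and 0.62), though with *Klrg1* the ratios were 0.17 and -0.06 among cells of 4000 to 16000 UMIs. *Cxcr4* was lower in Treg cells with *Klrg1* (-1.09 and -0.97) and within the gap in those without (-0.73 and -0.34). Among cells of 4000 to 16000 UMIs the *Cxcr4* ratios were -1.59 and -1.52 with *Klrg1* and -0.97 and -0.76 without. Those without *Klrg1* were then also beyond the gap, at 250, 215 and 127 CPM.

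**Figure D5:**
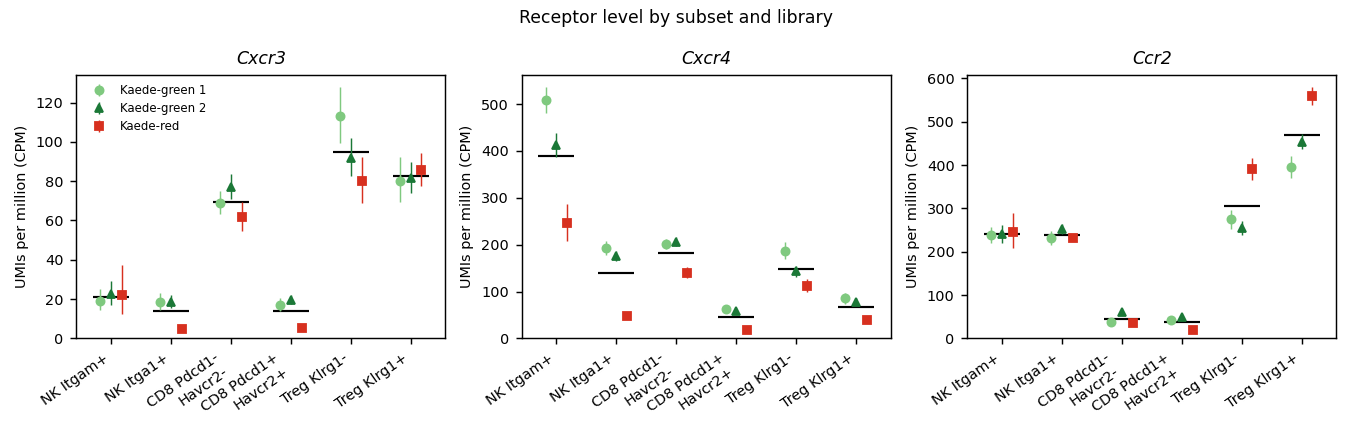
CPM of *Cxcr3*, *Cxcr4* and *Ccr2* in subsets of NK, CD8 T and Treg cells by library, with Poisson 95% intervals and the mean as a bar. The Kaede-red square of *Cxcr3* falls below the Kaede-green points in NK *Itga1* cells (4.87 CPM) and lies beside them in NK *Itgam* cells (22.3 CPM).

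Other genes of the pathway were taken as lists. Of 18 other chemokine receptors, 11 passed the filter on low counts between classes. NK cells were higher than CD8 T cells for 2 and lower for 6 of them, with a median log2 difference of -1.66 against 0.00 over all genes, of which 27.6% passed. CD8 T cells were higher than CD4 T cells for 0 and lower for 5 (25.2% of all genes passed), Treg cells higher for 3 and lower for 0 (23.1%), and γδ T cells higher for 1 and lower for 2 (14.4%). No list member passed between ILC-like and NK cells.

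Among the most abundant of them, *Ccr7*, which guides cells to lymph nodes, had 337, 284 and 220 CPM in CD8 T cells and 30.6, 37.8 and 20.2 in NK cells (adjusted p = 9.31e-08). *Ccr1*, a receptor for inflammatory chemokines, had 29.8, 30.0 and 52.4 CPM in Treg cells and 1.35, 8.47 and 29.8 in CD4 T cells (adjusted p = 0.0141). *Ccrl2*, an atypical receptor, had 156, 144 and 160 CPM in Treg and 77.3, 61.6 and 107 in CD4 T cells (adjusted p = 0.0443).

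In the splits, *Ccr7* was lower and *Ccr1* higher both in double-positive CD8 T cells (-1.25 ± 0.15 and 3.47 ± 0.28) and in *Klrg1* Treg cells (-0.86 ± 0.11 and 1.51 ± 0.13). *Ccr9*, a gut-homing receptor, was uneven within a class, with 17.9, 49.3 and 0 CPM in CD4 T cells.

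Of 11 genes for the receptors' ligands, 10 were in the files and 7 were tested between classes. NK cells were higher than CD8 T cells for 2 (*Cxcl10* and *Ccl12*) and lower for 0, where 13.4% of all genes were higher and 14.3% lower. *Ccl12* was uneven in NK cells, between 0.053 and 10.7 CPM over the libraries. The sum of 8 myeloid genes in NK cells was between 3.83 and 70.4 CPM, and its part in this was not tested. *Cxcl10* had 597, 664 and 359 CPM in NK and 295, 226 and 168 in CD8 T cells (1.29 ± 0.24, adjusted p = 6.86e-04), and *Cxcl9* (5.12 ± 0.87, adjusted p = 6.21e-04) and *Cxcl10* (1.78 ± 0.25, adjusted p = 1.16e-04) were higher in γδ than in CD4 T cells, with *Cxcl9* on 2, 10 and 1 UMIs in the latter. *Ccl1*, the ligand of CCR8, was higher in double-positive CD8 T cells (2.88 ± 0.36, adjusted p = 1.24e-04) and in NK *Itga1* cells (3.67 ± 0.33, adjusted p = 4.06e-05). Thus *Ccl1* and *Ccr8* were both higher in double-positive CD8 T cells. Of 3 ligand genes tested in that split, 1 was higher and 2 lower, where 22.8% of all genes were higher and 23.3% lower. The lower ones were *Cxcl9* (-2.34 ± 0.44, adjusted p = 0.00168) and *Cxcl10* (-1.49 ± 0.11, adjusted p = 4.32e-06). In the NK split 4 were tested, 1 higher and 0 lower, where 17.6% of all genes were higher and 16.1% lower.

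All 23 genes of G protein signaling and desensitization were tested between classes, and 7 of them passed between NK and CD8 T cells, 4 higher and 3 lower, a share near the 27.6% of all genes. *Rgs1*, a brake on G protein signaling, was higher in NK cells (0.85 ± 0.10, adjusted p = 5.57e-06), and *Rgs16* (-1.11 ± 0.12, adjusted p = 3.29e-06) and *Rgs10* (-2.27 ± 0.18, adjusted p = 4.88e-08) were lower. In the CD8 T split 16 of 21 passed, 10 higher and 6 lower, against 46.1% of all genes, and *Rgs16* was higher by 2.77 ± 0.24 (adjusted p = 1.44e-05) and *Rgs10* lower at -1.61 ± 0.10 (adjusted p = 2.34e-06). Between γδ and CD4 T cells 8 of 23 passed against 14.4% of all genes, *Arrb1*, a beta-arrestin gene, among them (2.16 ± 0.28, adjusted p = 5.42e-05).

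The genes whose levels followed each receptor most closely over the 18 sums, by Pearson's r of log2(CPM + 1), are given as a description, since sums of the same library share their depth and those of the same class their rule. They were *Chd3* (r = 0.97), *Trp53inp1* (0.95) and *Crlf3* (0.95) for *Cxcr3*, and *Smad3* (0.96), *Rasa3* (0.96) and *Kdm6b* (0.95) for *Cxcr4*. For *Cxcr6* they were *Il7r* (0.97), *Klk8* (0.96) and *Ltb* (0.94), and for *Ccr2* *Lmna* (0.93), *Ly6e* (0.90) and *Cdc42* (0.89). *Ccr8* was followed by *Ctla4* (0.96), *Tnfrsf4* (0.93) and *Ikzf4* (0.93), and *Cx3cr1* by *Smpdl3b* (0.88), *Gldc* (0.88) and *Gng2* (0.86).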

How the data were processed

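TILs of 3 libraries (2 Kaede-green, 1 Kaede-red) were analyzed. The values deposited by the authors are raw UMI counts, a number for each gene in each barcode, made with Cell Ranger from 3' v3 libraries and not normalized; the file headers name version 6.0.1 and the submitters' processing notes 6.1.2 and mm10. The counts were used as deposited, and 0 columns lacked a sample. The study states more TILs after quality control than these libraries hold barcodes, so some of its cells were not analyzed here. A cell was kept if it had 1000 to 6000 genes and a mitochondrial share of UMIs under 7.5%, limits taken from the study. No doublet caller was run. Cells meeting at least 2 class rules were left out, and an alternative left out cells with at least 2 UMIs of another lineage's genes.

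UMIs were summed per library and class or subset and tested with edgeR 4.0.16 (R 4.3.3; quasi-likelihood, TMM, its filter on low counts, library as block, Benjamini-Hochberg, threshold 0.05). The script was tested on simulated data. Sums of the same library are paired by construction; the label's replicate numbers exist only for Kaede-green. DESeq2 1.42.0, library sizes alone, no filter, no block, cell filters and leaving out each library were alternatives. Python 3.11.15, numpy 2.4.6, scipy 1.17.1 and pandas 2.3.3 did the rest. Colors were compared without a test, as log2 ratios of CPM with 0.5 UMI added. Intervals are exact (Poisson for levels, Clopper-Pearson for shares, 95%) and, like the limit of 3 counts allowed by a 0, cover counting error only. B cells had at least 2 UMIs of *Cd79a* and 1 of *Ms4a1*, with no *Cd3e* or *Ncr1*. Marker lists not described in the report were at most 35.9 CPM (B, 4 genes) and 70.4 CPM (myeloid, 8 genes) in any class, and 3 CD4 T cell genes summed to 1047 to 1398 CPM in CD4 T and 398 to 408 in CD8 T cells.

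The genes named are the 6 receptors, up to 5 of the other chemokine receptors with the highest mean level, and for each receptor the 3 genes with the highest correlation; ligand and signaling genes beyond these were named after their values were seen. An item that the rule names is not reported here. The receptors, lists and splits were chosen with earlier results of these data known.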

Additional observations from a re-analysis of the deposited data

Results flagged for a closer look

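*Ccr2* and *Ccr8* came up because their Kaede-red ratios were beyond the Kaede-green gap in opposite directions in different classes. The mean log2 ratio of *Ccr2* in Kaede-red to the Kaede-green libraries was -1.06 in CD8 T cells and -0.35 in ILC-like cells, but 0.51 in Treg cells and 0.25 in γδ T cells. In ILC-like cells the counting interval of the ratio to Kaede-green 1 included equality. In levels, *Ccr2* had 41.0, 59.3 and 23.6 CPM in CD8 T cells (Kaede-green 1 and 2, then Kaede-red) and 338, 369 and 503 CPM in Treg cells. The mean log2 ratio of *Ccr8* was -0.34 in CD8 T cells and 0.51 in CD4 T cells. These differences between classes were not tested, since there was 1 Kaede-red library, and *Ccr8* in CD4 T cells rested on few UMIs.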

How the results depend on the processing

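The 47 tested differences of a receptor between classes or subsets gave 530 alternative values, of which 466 kept their direction and their side of the threshold, 38 lost the call, 15 gained one and 11 changed sign. Without the replicate block (the library), 3 of 6 receptors passed between γδ and CD4 T cells, 1 between NK *Itga1* and *Itgam* cells and 0 between Treg cells with and without *Klrg1* by edgeR, against 6, 2 and 3 with it. With no filter on low counts, 4 passed between ILC-like and NK cells and 5 between Treg and CD4 T cells, against 2 and 3. Among cells of 4000 to 16000 UMIs 4 passed between ILC-like and NK cells, and 1 between the NK subsets, as also with DESeq2 and without cells that held other-lineage RNA. Leaving out each library in turn gave 0 to 5 for Treg against CD4 T cells, 2 to 6 for γδ against CD4 T cells and 1 to 2 for the NK subsets.

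Signs changed mainly for differences near 0. Among cells of 4000 to 16000 UMIs the log2 differences turned to 0.057 for *Cxcr4* (ILC-like against NK), 0.049 for *Ccr8* (CD8 T against CD4 T), 0.28 for *Cxcr3* and -0.027 for *Ccr2* (NK *Itga1* against *Itgam*), 0.10 for *Ccr2* (CD8 T double-positive against double-negative) and 0.038 for *Ccr8* (Treg with against without *Klrg1*). There the Kaede-red ratio of *Cxcr3* in Treg cells with *Klrg1* turned to -7.96e-05 and that of *Ccr2* in NK *Itgam* cells to -0.089. With library sizes alone, *Ccr2* between the NK subsets turned to -0.015. Leaving out each library gave -0.29 to 0.036 for *Cxcr4* and -0.49 to 1.10 for *Cx3cr1* in ILC-like against NK cells, and -0.17 to 0.056 for *Ccr8* with *Klrg1* in Treg cells. The cause was not tested.

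The counts of all genes passing in a direction moved by over 1.5 times in 54 of 180 alternatives. Between Treg cells with and without *Klrg1* they were 203 higher and 250 lower, and 2 and 3 without the block. Between NK *Itga1* and *Itgam* cells they were 1661 and 1522, and 553 and 514 among cells of 4000 to 16000 UMIs. Between CD8 and CD4 T cells they were 1276 and 1506, and 171 and 540 with cells of 2 classes kept. The 17 of 36 Kaede-red ratios beyond the gap stayed within 1.5 times under 9 alternatives. Some sums held few UMIs, with 1 to 13 of *Ccr8* or *Cx3cr1* in several of ILC-like and γδ T cells and 4, 27 and 1 of *Cxcr6* in NK *Itgam* cells.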

Other observations

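Cells in none of the 6 classes held the receptors as well. Kaede-green 1 and 2 held 3930 and 3650 of them and Kaede-red 2244, and 49.6%, 52.4% and 61.6% of these cells had a *Cd3e* UMI. *Cxcr4* had 392, 294 and 228 CPM in them, *Ccr2* 102, 138 and 114, *Cxcr3* 51.3, 48.0 and 47.4, and *Cxcr6* 42.3, 42.7 and 53.8. *Cxcr4* was again lowest in Kaede-red.

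The 941 cells that met at least 2 class rules were deep, with medians of 13103, 15016 and 19073 UMIs. Most paired the CD8 T rule with the Treg rule (467 cells) or with the CD4 T rule (278 cells). *Cxcr6* had 204, 235 and 283 CPM in these cells and *Ccr2* 145, 154 and 148, between the CD8 T and Treg levels for *Ccr2* in every library.

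B cells of the 2 Kaede-green libraries had 267 and 247 CPM of *Cxcr4*, 18.3 and 17.6 of *Cxcr3*, 13.1 and 23.5 of *Ccr2* and 6.55 and 15.7 of *Cxcr6*. The NK level of *Cxcr3* in the same libraries (21.7 and 21.1 CPM) was close to that of B cells.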
